A study of Mus musculus with 12 samples.

Results

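Matricellular proteins were examined in the ventricular wall of mice that lack the mitochondrial assembly factor Sdhaf4 in striated muscle. The 10 genes are the 5 thrombospondins (Thbs1, Thbs2, Thbs3, Thbs4 and Comp), periostin (Postn), tenascin-C (Tnc), osteonectin (Sparc), osteopontin (Spp1) and connective tissue growth factor (Ctgf, also named Ccn2). They were found by gene name, 10 rows of the 43686 in the table. All 10 passed the filter on low counts (Spp1 through the KO hearts), as did 17155 rows in all. The list was chosen by values of the same comparison, KO against WT, that is described here. Levels and fold changes of the members are therefore given as a description, without a test.

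The study compared 6 WT hearts with 6 KO hearts. WT mice carried floxed Sdhaf4 alleles (Sdhaf4fl/fl) and no Cre. KO mice carried the same alleles with Ckmm-Cre, a transgene in which the muscle creatine kinase promoter drives Cre, so that deletion falls in cardiac and skeletal muscle and not by design in fibroblasts, vessels or blood cells. Both genotypes were on a C57BL/6 background, given as C57BL/6J in the study's methods, whereas the gene identifiers of the table are those of C57BL/6NJ. No treatment is named, the labels give an age of 2 months and name the mutants Sdhaf4-/-, and the ages stated within the study differ among themselves. The study's results section gives the sequenced hearts an age younger than 2 months, and its reporting summary names male mice for omics analysis. Messenger RNA of ventricular wall tissue was sequenced in bulk, so a change in the number of cells of a type cannot be told apart from a change in RNA per cell.

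Matricellular proteins are secreted into the extracellular matrix, where they regulate how cells attach and respond to growth factors, and are not structural fibres themselves. Most are low in the healthy adult heart and are known to return in infarct scars, pressure overload and cardiomyopathy, largely from activated fibroblasts. Thrombospondins fall into subgroup A, trimers with a von Willebrand factor C domain (Thbs1 and Thbs2), and subgroup B, pentamers without it (Thbs3, Thbs4 and Comp).

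Library totals ranged from 23747014 to 27159228 counts in WT and from 26542930 to 31393393 in KO. Sdhaf4 lay at 14.3 to 30.3 CPM (the counts scaled to a common library size by the TMM method, and the unit of levels unless FPKM is named) in WT and at 2.25 to 2.73 CPM in KO, a log2 fold change of -3.39 ± 0.16 (SE). No library went against its genotype by this gene. KO heart 3 and KO heart 6 had the lowest values of several members among the KO hearts, and the values without either are given where they matter. The cardiomyocyte genes Myh6 and Tnnt2, at means of 16530 and 8825 CPM in WT, marked the tissue as myocardium, and the atrial genes Myl7, Sln and Bmp10 had at most 9 counts in any library.

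Thbs4 and Thbs2 had the largest and the smallest fold change of the list, and Postn was the most abundant of the 3 members with the largest fold changes. Their proximal promoters are shown for this contrast. The sequences are the 250 bases before the RefSeq start, on the strand of the gene, from build GRCm38.p6, at chr13:92794819-92795068 (minus strand) for Thbs4, chr17:14694263-14694512 (minus strand) for Thbs2 and chr3:54360857-54361106 (plus strand) for 1 of the 2 Postn starts. Capitals mark matches, on either strand, to the TATA box TATAAA, the TEAD motif GGAATG or the SMAD motif CAGACA.
Thbs4: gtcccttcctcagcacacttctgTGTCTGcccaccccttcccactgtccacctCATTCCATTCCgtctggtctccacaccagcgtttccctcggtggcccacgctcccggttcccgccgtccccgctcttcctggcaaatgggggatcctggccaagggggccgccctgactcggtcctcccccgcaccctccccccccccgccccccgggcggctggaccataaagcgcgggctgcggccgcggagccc
Thbs2: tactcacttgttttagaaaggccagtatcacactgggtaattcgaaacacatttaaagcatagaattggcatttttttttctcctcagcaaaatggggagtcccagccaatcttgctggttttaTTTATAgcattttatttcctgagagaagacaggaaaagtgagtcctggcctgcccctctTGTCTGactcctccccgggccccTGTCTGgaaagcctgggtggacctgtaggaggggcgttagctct
Postn: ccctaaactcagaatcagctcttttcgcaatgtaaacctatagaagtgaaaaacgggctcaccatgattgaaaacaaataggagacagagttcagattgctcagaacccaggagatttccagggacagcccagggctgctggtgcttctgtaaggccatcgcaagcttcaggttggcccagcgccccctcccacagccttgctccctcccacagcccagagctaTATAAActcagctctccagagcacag

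Positions count back from -1, the base before the start. Thbs4 held the TEAD letters at -197 and -192, matches that share 1 base, and the SMAD letters at -227. Thbs2 held the TATA letters at -126 and the SMAD letters at -67 and -44, and the Postn start shown held the TATA letters at -26. RefSeq promoters were given for 7 of the 10 members (not for Thbs1, Comp and Ctgf). Sparc held the SMAD letters at -36, and Spp1 and Tnc, each in 1 of 2 starts, at -34 and -71. The same start of Spp1 held the TATA letters at -211 and that of Tnc at -205, and the other Tnc start held them at -126. The 2 Tnc windows overlap, and these 2 Tnc matches are the same site. None of the letters were in the Thbs3 window, the other Spp1 start or the Postn start not shown. Among 32851 mouse promoters of this length, 12.4% held the TATA letters, 12.6% the TEAD letters and 17.1% the SMAD letters. The AP-1 motif TGANTCA, present in 6.75% of all promoters, was in no window of these members. A match describes letters only and is not evidence of binding.

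Of the 10 members, 9 were called higher in KO by edgeR's quasi-likelihood test (Benjamini-Hochberg adjusted p, limit 0.05), where 25.6% of all rows were, and 0 of 10 were lower, where 25.5% of rows were. At the study's stricter limits (0.005 for the adjusted p, and a change over 1 on the log2 scale), 7 members were higher, against 5.36% of rows. In 8 members every KO heart lay above every WT heart, which held for 14.9% of rows. The rule chose the members on this contrast, so nothing is read from these counts. The median log2 fold change of the members was 2.38, and that of all rows tested was 0.00. Thbs3 and Sparc were called at the first limit but not the stricter ones, and Thbs2 at neither.

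**Figure D1:**
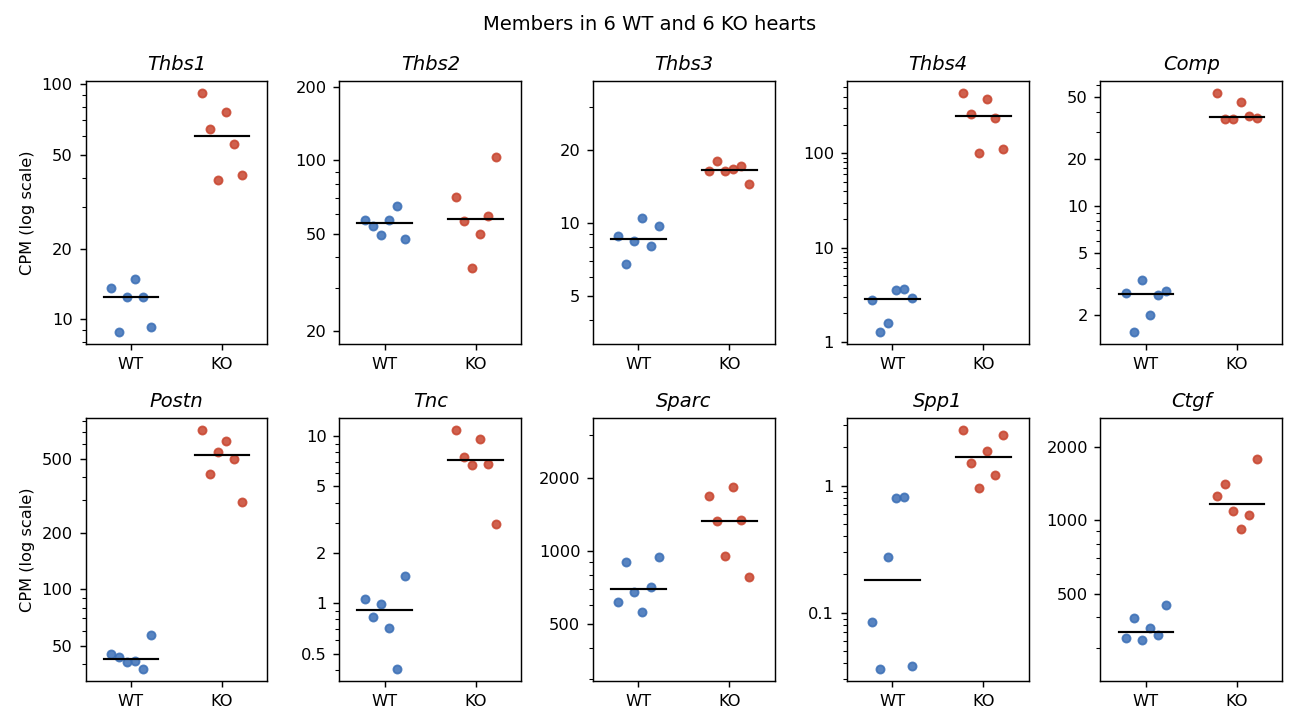
Level of each member in every heart, in CPM on a log axis whose range differs between panels. Points are hearts (6 WT in blue, 6 KO in red, in replicate order from left to right) and bars are medians. KO hearts lie wholly above WT hearts in 8 panels, and the groups overlap for Thbs2 and Sparc.

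Thbs1 encodes the thrombospondin of platelets and injured tissue that can activate latent TGF-beta. It lay at 8.82, 12.5 and 14.9 CPM (lowest, median and highest) in WT and at 39.0, 60.0 and 91.6 CPM in KO. The lowest KO heart, KO 3, was above the highest WT heart. The means differed 5.14-fold, with a log2 fold change of 2.37 ± 0.23 (SE).

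Thbs2, the other subgroup A gene, encodes an inhibitor of angiogenesis that also affects collagen fibril assembly. It lay at 47.7, 55.3 and 65.0 CPM in WT and at 36.2, 57.7 and 103 CPM in KO. Both the lowest and the highest of the 12 hearts were KO hearts, KO 3 and KO 6, so the KO values enclosed the whole WT range. Its log2 fold change of 0.18 ± 0.21 (SE) was smaller than its error, and was -0.02 without KO 6 and 0.30 without KO 3. Thbs2 was the member with the highest WT level among the thrombospondins, at 9.25 ± 0.94 FPKM (SD, n = 6), a scale per gene length.

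Thbs3 encodes a subgroup B thrombospondin with roles in skeletal growth. It lay at 6.79, 8.63 and 10.5 CPM in WT and at 14.4, 16.5 and 17.9 CPM in KO. The KO hearts were close to each other and all above the WT hearts, and the log2 fold change was 0.92 ± 0.10 (SE). Thbs3 (chromosome 3, plus strand, 92800218 to 92813045 on the C57BL/6NJ assembly) lies wholly within the span of Mtx1, a gene of the opposite strand, and no strand setting of the counting is stated. Mtx1 went the other way, from 17.5 to 21.7 CPM in WT to 12.6 to 15.0 CPM in KO, with a log2 fold change of -0.55, and how many reads the pair share was not tested.

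Thbs4 encodes a thrombospondin of tendon, muscle and heart that is known to act in the endoplasmic reticulum stress response and to be induced in cardiac disease. It lay at 1.26, 2.83 and 3.60 CPM in WT, from 35 to 89 counts, and at 102, 247 and 437 CPM in KO, from 3087 to 13602 counts. Among the KO hearts KO 1, KO 4, KO 2 and KO 5 were at 437, 380, 259 and 236 CPM, and KO 6 and KO 3 at 111 and 102 CPM. Even these low KO hearts were far above every WT heart. The means differed 97.8-fold, and the log2 fold change of 6.62 ± 0.50 (SE) placed Thbs4 (chromosome 13, minus strand, 96942490 to 96986572) in rank 4 of 17155 rows. With a heart left out it ranged from 6.39 (KO 1) to 6.78 (KO 3).

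Comp encodes cartilage oligomeric matrix protein, the thrombospondin of cartilage and tendon, which binds collagens. It lay at 1.55, 2.71 and 3.34 CPM in WT and at 36.0, 37.2 and 53.0 CPM in KO. Of the KO hearts, 4 lay between 36.0 and 37.9 CPM, with KO 4 at 46.7 and KO 1 at 53.0 CPM. The log2 fold change of 4.02 ± 0.16 (SE) ranked Comp in place 51, with a ratio of the means of 16.2. The SE was smaller than that of Thbs4, whose KO hearts were more widely spread.

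**Figure D2:**
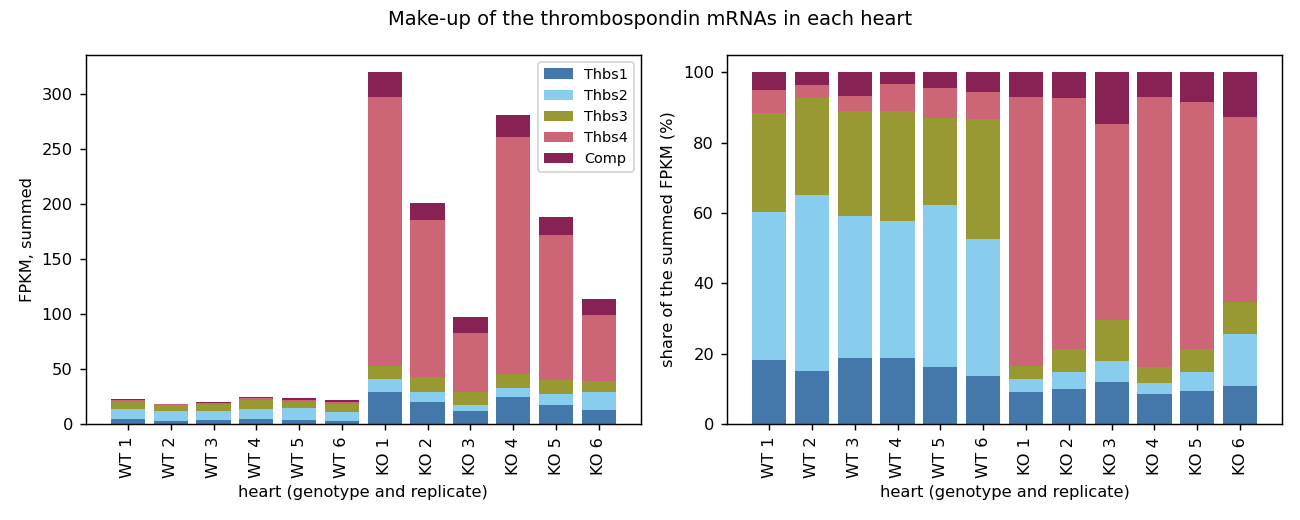
FPKM of the 5 thrombospondins in each of the 12 hearts, stacked as sums on the left and as shares of the heart's sum in percent on the right. The sum lies between 18.5 and 24.4 FPKM in WT and between 97.4 and 320 FPKM in KO, and the share of Thbs4 has a median of 7.16% in WT and 70.8% in KO (5.88% and 66.1% with the gene length of the table).

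The plot of the thrombospondin make-up puts the 5 genes on a common scale per length. Their summed level had a median of 22.1 FPKM in WT and 194 FPKM in KO, and every KO heart was above every WT heart. Thbs2 held the largest share of the sum in each WT heart, from 38.7% to 50.2%, and from 3.08% to 14.8% in KO. Thbs4 held 3.85% to 8.34% in WT and 52.5% to 76.8% in KO, the largest share in each KO heart. Thbs3 went from a median of 29.1% to 6.67% although its own level was higher in KO, and Thbs1 from 17.2% to 9.56%. Comp held a median of 4.79% in WT and 7.94% in KO. The FPKM use gene lengths that are shorter than those of the table for Thbs1, Thbs3 and Thbs4 but not for Thbs2 and Comp, and the shares depend on this. With the length of the table, the median share of Thbs3 was 14.1% in WT and 3.72% in KO, that of Thbs2 58.6% and 8.35%, that of Thbs4 5.88% and 66.1%, and that of Comp 6.70% and 13.1%, above the 8.74% of Thbs1 in KO. Thbs2 still held the largest share in each WT heart and Thbs4 in each KO heart.

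Postn encodes periostin, a protein of activated fibroblasts that supports collagen cross-linking. It lay at 37.5, 42.4 and 57.3 CPM in WT and at 293, 522 and 717 CPM in KO. KO 1 was highest, KO 6 lowest, and the ranges were far apart. The means differed 11.6-fold, and the log2 fold change of 3.54 ± 0.21 (SE) became 3.66 without KO 6.

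Tnc encodes tenascin-C, a hexameric protein that loosens cell attachment and marks tissue under remodelling. It lay at 0.405, 0.907 and 1.45 CPM in WT, on 10 to 38 counts, and at 2.96, 7.16 and 10.9 CPM in KO, on 82 to 339 counts. KO 6, the lowest KO heart, was at 2.96 CPM while the other KO hearts were at 6.75 CPM or more. This gave a log2 fold change of 3.02 ± 0.31 (SE). An unnamed row of the opposite strand spans 77.1% of Tnc, but had at most 0.0687 CPM in any heart.

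Sparc encodes a collagen-binding protein made by fibroblasts and endothelium, and had the highest mean FPKM of the members in both genotypes, although in KO 6 Ctgf was above it (999 against 600 FPKM). It lay at 564, 699 and 946 CPM in WT and at 781, 1333 and 1833 CPM in KO. KO 6 was below WT 2 and WT 6, so the groups overlapped. Its log2 fold change was 0.84 ± 0.21 (SE), and 0.95 without KO 6.

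Spp1 encodes osteopontin, a secreted phosphoprotein of macrophages and other cells that binds integrins and Cd44. It was rare: WT libraries held 1 to 20 counts and KO libraries 29 to 86. Spp1 thus passed the filter on low counts through the KO hearts. It lay at 0.0361, 0.180 and 0.809 CPM in WT and at 0.960, 1.68 and 2.76 CPM in KO. The groups did not overlap, but the highest WT hearts, WT 4 and WT 5, were close to the lowest KO heart, and the log2 fold change of 2.40 had the largest SE of the members, 0.57.

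Ctgf encodes a CCN family protein whose gene is a known target of TGF-beta and of YAP with TEAD factors. It lay at 323, 349 and 449 CPM in WT and at 920, 1171 and 1788 CPM in KO. The lowest KO heart, KO 4, was above the highest WT heart, and KO 6 was the highest. Its log2 fold change was 1.77 ± 0.15 (SE), and 1.64 without KO 6. An unnamed row of the opposite strand, MGP_C57BL6NJ_G0015525, covers 51.4% of Ctgf and went from 9.87 to 14.5 CPM in WT to 18.4 to 59.0 CPM in KO, with a log2 fold change of 1.36. Its level was far below that of Ctgf, and the reads that the pair share were not tested.

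**Figure D3:**
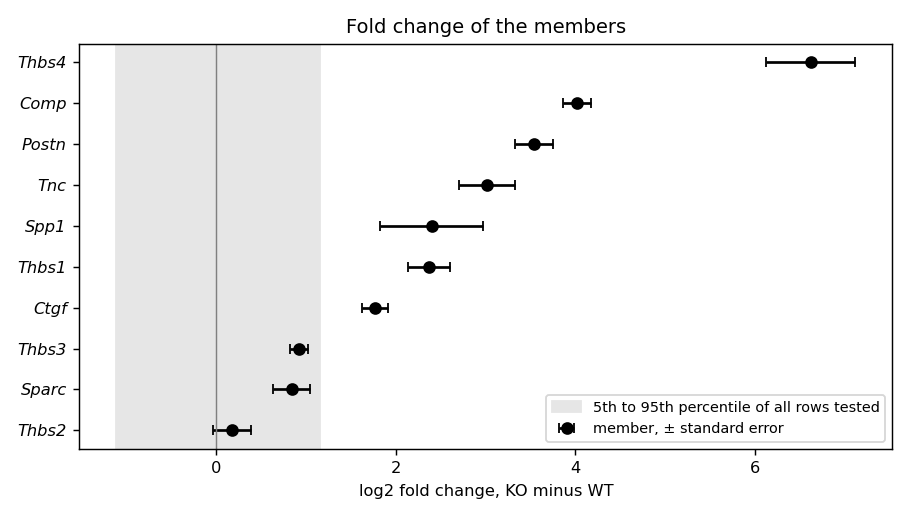
Log2 fold change of each member, KO minus WT, with its standard error. The grey band runs from the 5th to the 95th percentile of all 17155 rows tested, from -1.11 to 1.16, and Thbs3, Sparc and Thbs2 lie within it.

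In level per length (FPKM, mean of 6 hearts), the WT order was Sparc at 582, Ctgf at 210, Postn at 19.5, Thbs2 at 9.25, Thbs3 at 6.38, Thbs1 at 3.65, Thbs4 at 1.43, Comp at 1.04, Spp1 at 0.315 and Tnc at 0.152. The hearts of neighbours in this order did not overlap down to Thbs4, whereas Thbs4 overlapped Comp, Comp overlapped Spp1 and Spp1 overlapped Tnc. In KO the order was Sparc at 1046, Ctgf at 716, Postn at 227, Thbs4 at 142, Thbs1 at 19.0, Comp at 17.0, Thbs3 at 12.1, Thbs2 at 10.5, Spp1 at 1.70 and Tnc at 1.24. Here Sparc overlapped Ctgf, Postn overlapped Thbs4, Thbs1 overlapped Comp, Thbs3 overlapped Thbs2 and Spp1 overlapped Tnc. Thbs4 thus moved from place 7 to place 4, and Thbs2 from place 4 to place 8. With the gene length of the table in place of the shorter length behind the FPKM, 6 of 10 members kept their place in each genotype, and Thbs2 came in place 3 in WT and 6 in KO.

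**Figure D4:**
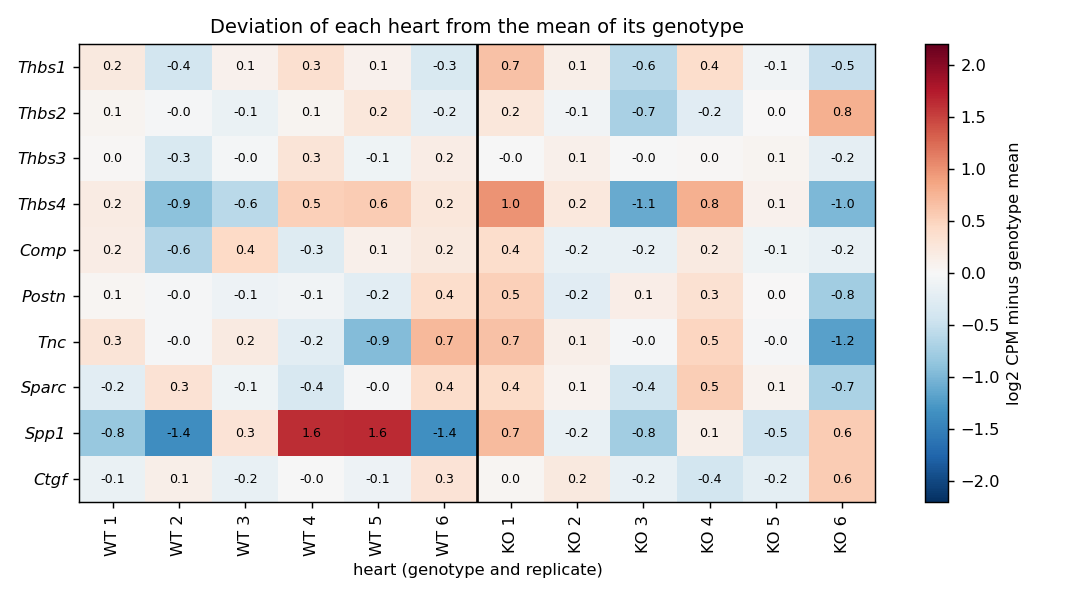
Deviation of each heart from the mean of its genotype on the log2 CPM scale, for the 10 members (rows) and the 12 hearts (columns, WT left of the line, KO right). KO 3 and KO 6 carry most of the low values in KO, and KO 6 is high for Thbs2, at 0.79, and Ctgf, at 0.55.

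Within the KO genotype the members did not rank the hearts alike. KO 1 was the highest heart for 6 members, Thbs1, Thbs4, Comp, Postn, Tnc and Spp1. KO 3 was the lowest for Thbs1, Thbs2, Thbs4, Comp and Spp1, and KO 6 was the lowest for Thbs3, Postn, Tnc and Sparc and the highest for Thbs2 and Ctgf. The map of deviations shows the same split, with KO 6 at -0.99 for Thbs4, -1.20 for Tnc and -0.76 for Postn on the log2 scale, beside 0.79 for Thbs2. In WT, WT 6 was the highest for Postn, Tnc, Sparc and Ctgf, and WT 2 the lowest for 5 members, the deviation of its Thbs4 being -0.90.

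Correlations of pairs were computed over the 6 hearts of each genotype, 8 relations in all, with exact two-sided permutation tests. Each r was computed again without the 2 hearts farthest from the median of the first gene of the pair. Those values rest on very few hearts and are given without a test. Postn and Tnc gave r = 0.92 in KO (rho = 0.77, exact permutation p = 0.0139 for r and 0.103 for rho), and r = 0.85 in WT (rho = 0.83, exact permutation p = 0.0472 and 0.0583). After adjustment over the 8 relations these were 0.111 and 0.133 for r, and 0.206 in both for rho, and without the 2 farthest hearts r was 0.51 in KO and 0.45 in WT. Thbs4 and Comp gave r = 0.80 in KO (rho = 0.83, exact permutation p = 0.0792, adjusted 0.133) and r = 0.26 in WT (rho = -0.03, exact permutation p = 0.667). Without the 2 farthest hearts, these were 0.97 and -0.59. Postn with Sparc, r = 0.78 in KO (rho = 0.77) and 0.56 in WT (rho = 0.31), and Thbs1 with Ctgf, r = -0.33 (rho = -0.20) and -0.76 (rho = -0.43), also did not pass. Without the 2 farthest hearts Postn with Sparc was at 0.30 and 0.15, and Thbs1 with Ctgf at -0.80 in KO and 0.84 in WT, where the sign turned. The smallest adjusted p of the 8 relations was 0.111.

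The rows whose hearts deviated most like Thbs4, by Pearson's r of deviations from the genotype mean over 12 hearts among 10249 named rows with a mean of at least 5 CPM, were Sri (r = 0.93), Csnk1d (0.92), Col4a3 (0.91), Sec61a1 (0.91) and Serpinf1 (0.90). Of these Serpinf1, which encodes a secreted serpin, went from a mean of 22.2 to 113 CPM, and Col4a3, a basement membrane collagen chain, from 10.1 to 29.3 CPM, while Csnk1d was at 104 and 108 CPM. Tnc and Spp1 were below this level and were not compared. Among the other members Thbs1 was the nearest to Thbs4, with r = 0.85, in place 22 of those rows, and Ctgf gave r = -0.31. For Postn they were Pcolce (0.97), Adamts2 (0.95), Rap1gds1 (0.94), Baz1b (0.94) and Uprt (0.92). Pcolce and Adamts2 encode proteins that act on the ends of procollagen, and went from 34.1 to 87.7 CPM and from 42.3 to 123 CPM. Of the members compared, Sparc was the nearest to Postn, with r = 0.73, and Thbs2 gave r = -0.56. Tnc, not compared here, gave a higher r with Postn within each genotype (0.92 in KO and 0.85 in WT). These values are a description, since all genes of a heart share its library, depth and tissue composition.

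**Figure D5:**
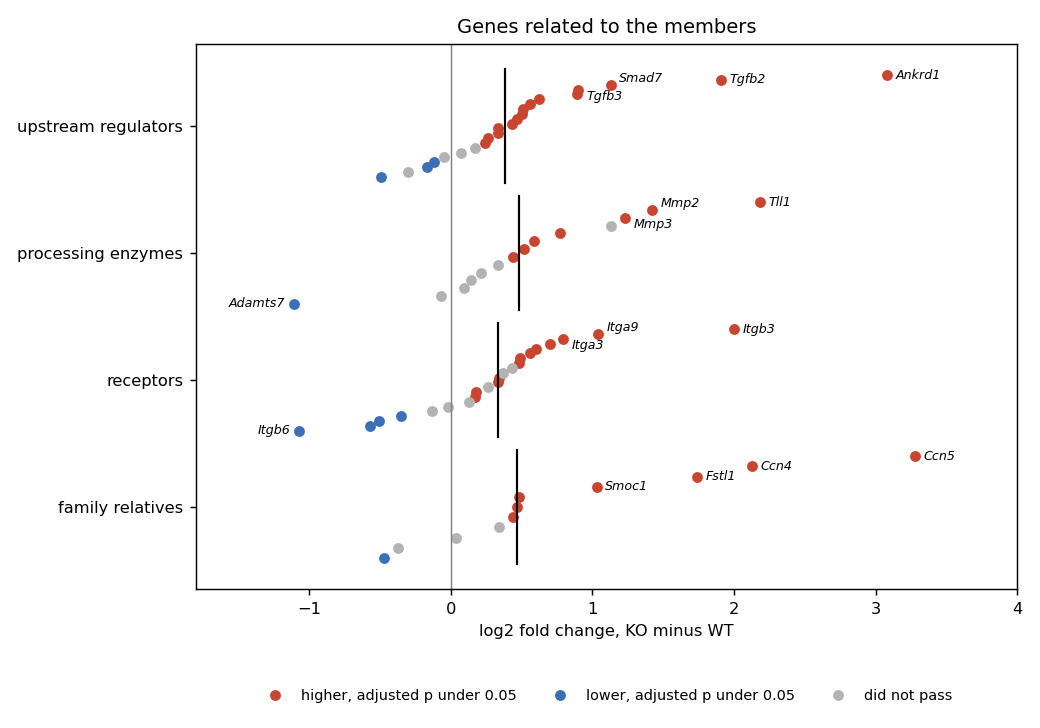
Log2 fold change, KO minus WT, of the tested genes in 4 lists related to the members (the upstream regulators include targets that their pathways induce). Points are genes, coloured by the edgeR call (limit 0.05 for the adjusted p), and vertical bars are list medians, which lie between 0.33 and 0.48. Ccn5, at 3.28, and Adamts7, at -1.11, are the extremes.

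Over all rows 25.6% were called higher in KO and 25.5% lower, and the counts of the lists below stand beside these shares. Among 20 relatives of the member families (other CCN, tenascin, SPARC and SIBLING genes), 11 passed the filter, 7 were higher in KO, 1 was lower and 3 did not pass, with a median log2 fold change of 0.47. The CCN genes, relatives of Ctgf, went different ways. Ccn5 (Wisp2 in the table) rose from 11.5 ± 1.61 to 112 ± 14.7 CPM (SD, n = 6), or 3.28 ± 0.11 on the log2 scale (SE, edgeR adjusted p = 7.43e-12), and Ccn4 (Wisp1) rose by 2.13 ± 0.31 on the log2 scale (edgeR adjusted p = 2.02e-05). Ccn4 was rare, at 5 to 21 counts in WT libraries and 44 to 123 in KO, so the size of its fold change is imprecise. Ccn1 (Cyr61), like Ctgf a known YAP target, fell from 70.8 to 51.1 CPM, by 0.47 ± 0.17 on the log2 scale (edgeR adjusted p = 0.0325). That call was lost without WT 1, KO 2, KO 3, KO 4 or KO 5, at edgeR adjusted p of 0.0537 to 0.0717. Fstl1, which encodes a secreted SPARC family glycoprotein, rose from 124 to 414 CPM and Smoc1 from 6.70 to 13.7 CPM, with log2 fold changes of 1.74 and 1.03. Tgfbi, the closest paralogue of Postn, rose by 0.47, Tnxb by 0.48 and Sparcl1 by 0.44. The relatives that did not pass were Ccn3 (log2 fold change -0.37, edgeR adjusted p = 0.0619), Smoc2 (0.04, edgeR adjusted p = 0.653) and Spock2 (0.34, edgeR adjusted p = 0.241), and Ccn3 passed as lower without WT 2, WT 5 or KO 2 (-0.43 to -0.51). Of the SIBLING relatives of Spp1, Ibsp and Mepe had 0 counts in all libraries.

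Of 22 receptors with a row, 12 were higher, 4 lower and 6 did not pass, with a median log2 fold change of 0.33. The 4 that fell were thrombospondin receptors or an epithelial integrin chain. Cd36, a fatty acid transporter that binds Thbs1, fell from 3313 to 2603 CPM, by 0.35 ± 0.08 on the log2 scale (SE, edgeR adjusted p = 0.00107). Cd47 had a log2 fold change of -0.51 ± 0.05, and Cacna2d1, the calcium channel subunit that binds thrombospondins, one of -0.57 ± 0.06, with every KO heart below every WT heart for both. Itgb6 had a log2 fold change of -1.07 at means of 4.85 and 2.30 CPM. Integrin chains made up most of the receptors that rose. Itgb3, a chain of the vitronectin receptor that binds periostin and osteopontin, went from 3.54 to 14.1 CPM, or 2.00 ± 0.17 on the log2 scale (SE, edgeR adjusted p = 5.05e-08), Itga9, a chain of a tenascin-C and osteopontin receptor, from 50.3 to 103 CPM, and Itga3 from 12.3 to 21.3 CPM. Itgav, the partner of Itgb3, rose by 0.34 and Itgb5 by 0.33, while Cd44, at 18.2 and 21.8 CPM, did not pass (edgeR adjusted p = 0.116, and 0.0250 without WT 6).

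Of 14 enzymes that process or glycosylate these proteins, 7 were higher, 1 was lower and 6 did not pass, with a median log2 fold change of 0.48. Tll1, a relative of Bmp1 that cleaves procollagens, rose from 0.610 to 2.79 CPM, or by 2.18 ± 0.24 on the log2 scale (SE, edgeR adjusted p = 1.27e-06). It rested on few counts, 7 to 23 in WT libraries and 66 to 97 in KO, so the size of its fold change is imprecise. Mmp2 rose from 87.1 to 234 CPM and Mmp3 from 5.67 to 13.3 CPM, with log2 fold changes of 1.42 ± 0.21 and 1.23 ± 0.27. Pofut2 and B3glct, which add and extend O-fucose on thrombospondin repeats, rose by 0.44 and 0.59. Adamts7, a protease known to degrade Comp, fell from 21.2 ± 2.76 to 9.79 ± 1.55 CPM (SD, n = 6), by 1.11 ± 0.11 on the log2 scale (SE, edgeR adjusted p = 3.25e-07), with no overlap of the hearts.

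Of 22 genes of the pathways known to act upstream of members (TGF-beta, YAP, SRF, angiotensin and ATF6 genes, with targets that these pathways induce), 15 were higher, 3 lower and 4 did not pass, with a median log2 fold change of 0.38. In the TGF-beta pathway Tgfb2 rose from 10.8 to 40.8 CPM, or by 1.91 ± 0.14 on the log2 scale (SE, edgeR adjusted p = 8.00e-08), Tgfb3 rose from 25.1 to 46.9 CPM, by 0.90, and the receptor gene Tgfbr1 by 0.89. The pathway's inhibitor and target gene Smad7 rose by 1.13. Smad2 and Smad3 did not pass (Smad3 did without KO 3, edgeR adjusted p = 0.0460), and Smad4 had a log2 fold change of -0.12 ± 0.04. In the YAP pathway Yap1 rose by 0.24, Wwtr1 by 0.33 and Tead1 by 0.56, and Tead3 had a log2 fold change of -0.17 ± 0.07. Both small falls depended on single libraries. The Smad4 call was lost without WT 2, KO 3 or KO 4 (edgeR adjusted p of 0.0593 to 0.0839), and that of Tead3 without WT 1, WT 2, WT 5, KO 1, KO 3, KO 4 or KO 5 (edgeR adjusted p of 0.0543 to 0.0905). Ankrd1, a YAP target that is also a cardiomyocyte stress gene, rose from 880 to 7420 CPM, or by 3.08 ± 0.14 on the log2 scale (edgeR adjusted p = 5.00e-10). Amotl2, another YAP target, was at 126 CPM in WT and 102 CPM in KO, a log2 fold change of -0.30 ± 0.15 that did not pass (edgeR adjusted p = 0.125). Without KO 6 it was -0.46 (edgeR adjusted p = 0.00106). The angiotensin receptor gene Agtr1a was the other gene that fell, by 0.49 on the log2 scale. Atf6, an endoplasmic reticulum stress sensor linked to Thbs4, had a log2 fold change of -0.05 ± 0.07 (edgeR adjusted p = 0.533).

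Markers of the cells that make these proteins were compared too. Their counts stand beside the 25.6% of all rows called higher and the 25.5% called lower. Of 10 fibroblast markers 7 were higher and 2, Dpt and Gsn, lower. Their summed level ran from 2629 to 3316 CPM in WT and from 3337 to 4143 CPM in KO, with KO 6 the lowest KO heart and KO 3 at 3416 CPM. Of 9 activated fibroblast markers with a row, 6 were higher, among them Ltbp2 (1.74 to 88.5 CPM), Cthrc1 (0.163 to 1.89 CPM), Col8a1 (35.8 to 357 CPM) and Lox (23.4 to 105 CPM), and 1, the smooth muscle actin gene Acta2, was lower at a log2 fold change of -0.44 ± 0.15, a call lost without WT 2, WT 4, KO 3 or KO 6 (edgeR adjusted p of 0.0522 to 0.0570). Cthrc1 rested on 1 to 10 counts in WT and 8 to 110 in KO, and its groups overlapped. Fap (log2 fold change 0.36, edgeR adjusted p = 0.119, and 0.0242 without KO 3) and Runx1 (0.21, edgeR adjusted p = 0.429) did not pass. The sum of the 9 markers ran from 167 to 229 CPM in WT and from 475 to 940 CPM in KO, and KO 6 again had the lowest KO sum. The part of these markers in the members' values was not tested.

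Of 10 cartilage, tendon and valve markers, cells in which Comp and Thbs4 are also abundant, 5 passed the filter. Tnmd, Col11a1, Scx and Sox9 were higher in KO, with log2 fold changes of 5.38 ± 0.97, 5.36 ± 0.82, 1.78 ± 0.15 and 0.94 ± 0.17, and Cnmd was lower, at -1.46 ± 0.47. Their levels were low: Tnmd and Col11a1 each had 0 to 6 counts in WT libraries, against 11 to 191 and 15 to 252 in KO, so they passed the filter through the KO hearts and the sizes of their fitted fold changes are imprecise. The summed level of the list was 7.84 to 10.7 CPM in WT and 18.1 to 40.8 CPM in KO, lowest in KO 3, and of the defining cartilage genes, which were below the filter, Col2a1 and Hapln1 had at most 5 and 6 counts in any library, while Acan had 1 to 6 counts in WT and 4 to 37 in KO. The part of this list in the values of Comp and Thbs4 was not tested.

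Macrophages can make Spp1, and of 7 macrophage markers with a row Mrc1 was higher and Adgre1 and Csf1r were lower, and the sums overlapped, at 202 to 283 CPM in WT and 203 to 325 CPM in KO. The Csf1r call was lost without WT 3, WT 4, WT 6, KO 2, KO 3 or KO 6 (edgeR adjusted p of 0.0521 to 0.0670), and Fcgr1 passed as higher without WT 1 or KO 6. Of 4 platelet markers tested, which stand for the platelet source of Thbs1, Ppbp was lower, while Pf4, at 8.84 and 8.69 CPM, Itga2b and Gp1ba did not pass. Gp1ba, at means of 0.645 and 1.19 CPM, passed as higher without WT 2, WT 5, KO 2 or KO 5. The lymphocyte markers Cd79a and Nkg7 did not pass.

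Of 8 endothelial markers Pecam1, Kdr, Emcn and Egfl7 were higher and Tek and Cldn5 lower. The Kdr call was lost without WT 2, WT 4, WT 5, WT 6, KO 1, KO 2, KO 5 or KO 6 (edgeR adjusted p of 0.0514 to 0.0822). Of 8 smooth muscle and pericyte markers Rgs5 and Pdgfrb were higher and Cnn1 and Abcc9 lower, which is near the share of all rows called each way (25.6% and 25.5%). Of 9 cardiomyocyte markers Tnni3, Myl2, Myl3, Ryr2 and Pln were lower and the other 4 did not pass, with sums of 52604 to 57404 CPM in WT and 42733 to 58539 CPM in KO. KO 3 had the highest sum, and without it Myh6 was lower too (log2 fold change -0.29, edgeR adjusted p = 0.00137). Of 2 skeletal muscle markers tested, Mylpf was lower and Tnnt3 did not pass. Without WT 1 Tnnt3 passed as higher (log2 fold change 1.61, edgeR adjusted p = 0.00375). The 5 atrial markers summed to 158 to 410 CPM in WT and 7403 to 15658 CPM in KO, nearly all of it Nppa, which is also induced in stressed ventricle and was higher by 5.65 ± 0.37 on the log2 scale (SE, edgeR adjusted p = 2.02e-07). Myl4, with means of 2.12 and 3.49 CPM, was the other atrial marker that passed the filter and was also higher. The part of these markers in the members' values was not tested.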

How the data were processed

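Ventricular wall mRNA of 6 WT and 6 KO mice was sequenced, 1 library per heart. The authors purified mRNA on poly-T beads, counted reads per gene with HTSeq and deposited raw counts per library, with FPKM per library, which the authors derived from the counts, a gene length and the library size. The submitters' processing notes name HISAT2 2.0.5 and mm10, whereas the identifiers and coordinates of the deposited table are those of the C57BL/6NJ assembly, so its coordinates were used as given and the RefSeq promoters (GRCm38.p6) were matched by gene symbol. For most members the length behind the deposited FPKM was shorter than the length in the table (1813 against 3198 bases for Thbs4). Whether reads were counted by strand is not given in the sources used here. The authors' group means (a signal of scaled counts), and the log2 fold changes with raw and adjusted p-values of their own DESeq comparison, are also in the deposited table and were not used.

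Counts were analysed with edgeR 4.0.16 in R 4.3.3: filterByExpr (17155 of 43686 rows kept), TMM scaling, and the robust quasi-likelihood test of KO against WT, with p-values adjusted over the rows kept by the Benjamini-Hochberg method. Each standard error is the fold change divided by the square root of F. log2 CPM used a prior count of 2. Exact permutation tests used Python 3.11.15 with scipy 1.17.1. The edgeR p-values set the difference between the genotypes against the spread between hearts of a genotype. The permutation p-values concern the relation of a pair of genes over the hearts of a genotype. The procedure was run on simulated data in which few rows changed, as many up as down. In the real data 25.6% of rows were called higher and 25.5% lower. The simulation therefore does not show how the procedure behaves with changes this broad. Alternatives were DESeq2 1.42.0 (size factors and Wald test), limma-voom (limma 3.58.1), library size only, other filters, no unannotated loci, a replicate block, and each library left out.

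The members and all gene lists were chosen with earlier results of these data known. Named were every member and, per related list, the 4 genes with the largest change among those past an adjusted p of 0.05 with a mean of at least 1 CPM, the genes of counts of 5 or fewer, the defining or extreme markers, and the 5 rows most like Thbs4 and Postn; other list genes in the text were chosen after their values were seen. Lrp1, Actn2, Cilp and Lyz2 were not analysed here, and an item of the regulator list and one of the lymphocyte list are not reported here.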

Additional observations from a re-analysis of the deposited data

Results flagged for a closer look

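In 5 of 66 sets of 6 hearts (members and named genes, each genotype), 1 heart stood apart from the others by Dixon's criterion, where chance gives about 3.3. Ccn4 in WT replicate 3 was at 0.197 CPM, and the other WT hearts were at 0.607 to 0.803 CPM. Itgb3 was high in the same heart, at 5.55 CPM against 2.79 to 3.50 CPM. Fstl1 in WT replicate 6, the heart with the highest WT values of Postn, Tnc, Sparc and Ctgf, was at 167 CPM against 105 to 124 CPM. Mmp3 in KO replicate 6 was at 25.4 CPM against 8.25 to 13.1 CPM, and its log2 fold change was 0.94 without that heart and 1.23 with it. Cacna2d1 in KO replicate 3 was at 190 CPM against 148 to 160 CPM, and its log2 fold change was -0.62 without that heart. None of the 10 members had such a heart in either genotype.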

How the results depend on the processing

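Members called higher numbered 9 in every alternative and with each heart left out. In the main analysis 25.6% of all rows were called higher, and that share is not given for the alternatives. The members were chosen on this contrast, so nothing is read from this count. Their median log2 fold change ran from 2.22 to 2.64 with a heart left out. It was 2.67 with limma-voom, where Spp1 went from 2.40 to 3.10. WT and KO hearts of equal replicate number share only that number (their deviations correlated at -0.23 to 0.08), and the replicate block gave 9 members higher and a median of 2.46. With a heart left out, receptors called higher ran from 11 to 14 (12 in the main analysis) and processing enzymes from 7 to 9 (7). Upstream regulators called higher ran from 14 to 16 (15), and family relatives stayed at 7. Counts of genes that fell were small and moved as well. Family relatives called lower, 1 in the main analysis, were 2 with DESeq2's Wald test and with limma-voom, 0 without the filter on low counts, 0 with the replicate block and 0 to 2 with a heart left out. Upstream regulators called lower, 3 in the main analysis, were 1 without the filter, 1 with the block and 1 to 4 with a heart left out. With CPM per kilobase of the table length, 6 members kept their place in the WT order and 6 in the KO order. No result changed its direction past the test's threshold. The block ended the calls of Ccn1, Smad4, Tead3, Adamts4 and Kdr among the listed genes, library size alone those of Smad4 and Csf1r, and the absence of a filter those of Ccn1, Egfr, Smad4, Tead3 and Acta2 (edgeR adjusted p of 0.0503 to 0.0953). Shares of the thrombospondins by table length were added after seeing the data. Spp1 and Tnc in WT rest on few counts (1 to 20 and 10 to 38), so the sizes of their fold changes are imprecise. The cause of these shifts was not tested.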
